A study of Rattus norvegicus with 6 samples.

Results

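The genes described here encode 9 calcium-binding proteins of the early secretory pathway, most of them in the lumen or membrane of the endoplasmic or sarcoplasmic reticulum: Casq1, Casq2, Srl, Hrc, Asph, Calr, Calu, Rcn1 and Sdf4. They were taken by gene symbol with no filter on their values, although earlier results of these data were known when the list was chosen. All 9 were found among the 40456 genes of the deposited table. The cells were H9c2 (2-1), a myoblast line from embryonic rat heart, of wild-type genotype, labelled as cardiomyocytes by the submitters. All cells were differentiated over 5 days at low serum, with retinoic acid added at 1 µM, before they received 25 nM gapmer for 24 h. A gapmer of locked nucleic acid (LNA) is an antisense oligonucleotide through which RNase H cuts the paired RNA. The 3 control libraries received a negative control LNA and the 3 knockdown libraries an LNA against the long non-coding RNA Tug1, so both groups share cell line, retinoic acid and transfection. A single gapmer stood for the knockdown and a single cell line for the cell type, and nothing in the labels says that the 3 libraries of a group came from separate cultures. The p-values therefore measure only the spread between these libraries, which may be technical. In bulk libraries, fewer cells of a type and less RNA per cell cannot be told apart. The gapmers are shown as designed, since they are what set the groups apart:
Tug1 LNA: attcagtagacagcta
Negative control LNA: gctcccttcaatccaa

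Muscle stores calcium in the sarcoplasmic reticulum, where luminal proteins of high capacity and low affinity hold the ion close to the release channels. Calsequestrin polymers are tied to the ryanodine receptor by triadin and junctin, and the histidine-rich calcium-binding protein and sarcalumenin act beside the calcium pump. In most other cells, and in the rough reticulum of muscle, the chaperone calreticulin and the EF-hand proteins of the CREC family (reticulocalbins, calumenin and Cab45) bind calcium along the secretory pathway. The series title names calcium signalling, and the comparison asked which of these stores' binding proteins changed in transcript level after the Tug1 gapmer.

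Total counts ran from 12978548 to 13544337 per library, and 3 counts, the limit of detection used here, corresponded to a CPM of 0.217 to 0.232. Levels below are in CPM, counts brought to a common library total, with each total scaled by TMM, a factor for library composition. Counts of Tug1 were 713, 672 and 718 in the controls and 164, 152 and 165 after knockdown (replicates 1 to 3 of each), or -2.19 as a log2 fold change (SE 0.0786, adjusted p 4.39e-16 by edgeR), so the libraries follow their labels. Of 16 cardiomyocyte markers, 5 passed the expression filter and 7 were at or under 3 counts in every library. Among these 7 were Nkx2-5, Myh6, Myh7 and the cardiac release channel Ryr2. Of 16 skeletal muscle markers, 15 passed the expression filter, with Myog at 275 ± 4.39 CPM and Myh3 at 176 ± 9.29 CPM (SD, n = 3) in controls. Fibroblast markers were high in sum, at 44007 to 45352 CPM in controls and 41336 to 44080 CPM after knockdown. The collagen genes Col1a1, Col1a2 and Col3a1 made up most of it, at means of 21693, 15137 and 6426 CPM in controls. Of the other fibroblast genes, Tcf21 had no count in any library, Fap at most 1 and Pdgfra 3 to 8. Endothelial markers summed to at most 4.63 CPM and immune markers to at most 9.10 CPM in a library, with no count of Ptprc. Of the cardiomyocyte list, the troponin gene Tnnt2 was well counted, at 349 ± 18.0 CPM in controls (SD, n = 3), but skeletal muscle precursors express it too. Hand2 (37.7 ± 0.638), Gata4 (12.7 ± 1.75), Actc1 (9.22 ± 0.41) and Myl2 (0.539 ± 0.133 CPM in controls, SD, n = 3) also passed the filter.

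All 9 genes passed the expression filter, and 8 of them had an adjusted p under 0.05 by edgeR (quasi-likelihood, Benjamini-Hochberg over 14216 tested genes). Srl, Asph and Hrc rose, Calu, Calr, Casq2, Sdf4 and Rcn1 fell, and Casq1 did not pass. Over all tested genes 61.7% passed, 30.8% higher and 30.9% lower, so most genes of any kind were called. The groups did not overlap for the same 8 members, against 65.6% of all tested genes. The changes were small: the median absolute log2 fold change was 0.27 over the 9 members and 0.34 over all tested genes. The median log2 fold change was -0.13 over the members and 0.00 over all tested genes. Log2 fold changes are Tug1 LNA over control, and SE is their standard error.

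**Figure D1:**
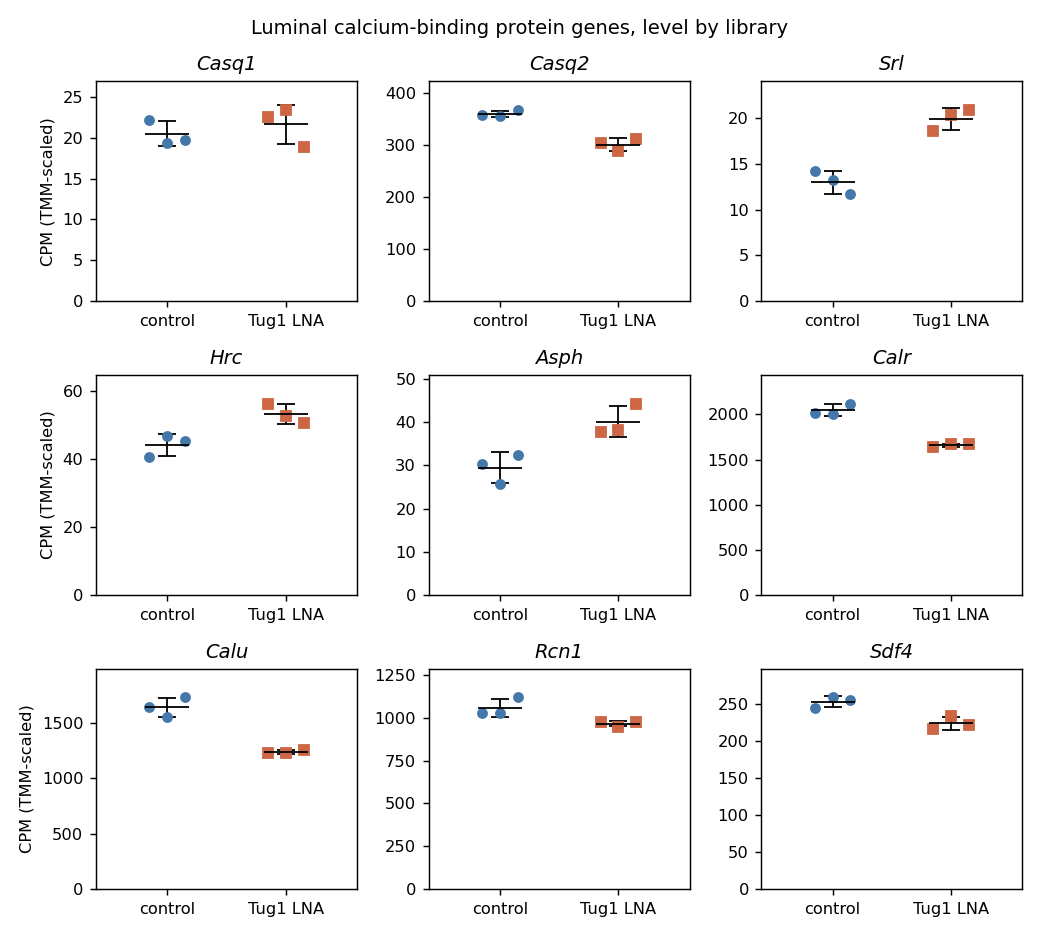
Level of each gene in CPM (TMM-scaled, linear axis from 0) in the 3 control libraries (circles) and the 3 Tug1 LNA libraries (squares), with the group mean and SD as black bars. Srl, Hrc and Asph lie higher in all 3 Tug1 LNA libraries, Casq2, Calr, Calu, Rcn1 and Sdf4 lie lower, and the Casq1 groups overlap.

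The calsequestrins are the main calcium buffers of the terminal cisternae, Casq2 in heart and slow muscle and Casq1 in fast skeletal muscle. Casq2 fell by a modest amount, while Casq1 did not pass the test. Casq2 was at 357, 356 and 368 CPM in control replicates 1 to 3 and at 304, 288 and 311 CPM in knockdown replicates 1 to 3. No knockdown value reached the lowest control value, and the group means were 360 ± 6.56 and 301 ± 11.8 CPM (SD, n = 3). On the log2 scale the change was -0.26 (SE 0.0446, adjusted p 2.69e-05 by edgeR), or 83.6% of the control level. Casq1 was at 22.2, 19.4 and 19.7 CPM in control replicates 1 to 3 and at 22.5, 23.4 and 18.8 CPM in knockdown replicates 1 to 3. The lowest Casq1 value of all 6 libraries and the highest one both belonged to the knockdown group. Its log2 fold change was 0.07, with a 95% interval from -0.12 to 0.27 (adjusted p 0.512 by edgeR), so a rise or fall of that size was not detectable at 249 to 316 counts per library. The coefficient of variation of Casq1 was 7.53% in controls and 11.2% after knockdown, beside 6.14% and 5.86% from counting error alone.

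The promoter window of Casq2 is shown because it holds a match to the binding site of MEF2, a transcription factor of muscle. The window covers 250 bases before and 50 after the RefSeq start of the gene, on the plus strand of rat assembly GRCr8 at chr2:192214306-192214605, and the match, in capitals, lies 149 to 140 bases before the start. The build used for the counts is not given in the sources used here, and the window was matched by gene symbol.
Casq2 promoter: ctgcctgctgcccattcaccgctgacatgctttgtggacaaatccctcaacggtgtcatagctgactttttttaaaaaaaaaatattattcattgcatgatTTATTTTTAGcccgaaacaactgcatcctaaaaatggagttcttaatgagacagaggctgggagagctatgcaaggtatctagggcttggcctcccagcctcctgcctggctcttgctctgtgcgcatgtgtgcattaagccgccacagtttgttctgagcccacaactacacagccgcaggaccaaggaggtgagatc
A match to the same motif on either strand was found in 1100 of 33469 such windows (3.29%), and Casq2 was the only one of the 7 members with a window in the table to hold one. Asph and Srl had no window there. The match describes these letters and is not a measured binding site.

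Srl encodes sarcalumenin, a luminal glycoprotein that binds calcium and stabilises the calcium pump. It rose further than any other member. Srl was at 14.2, 13.2 and 11.7 CPM in control replicates 1 to 3 and at 18.6, 20.3 and 20.9 CPM in knockdown replicates 1 to 3. The groups stood apart, with means of 13 ± 1.24 and 19.9 ± 1.18 CPM (SD, n = 3). On the log2 scale the change was 0.61 (SE 0.0996, adjusted p 1.26e-05 by edgeR), or 153% of the control level. Of all tested genes, 74.5% had a smaller absolute log2 fold change.

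Hrc encodes the histidine-rich calcium-binding protein, which interacts with triadin and with the calcium pump. Hrc was at 40.7, 46.8 and 45.3 CPM in control replicates 1 to 3 and at 56.4, 52.7 and 50.8 CPM in knockdown replicates 1 to 3. All knockdown libraries lay above all control libraries. The means were 44.3 ± 3.20 and 53.3 ± 2.84 CPM (SD, n = 3), or 0.27 as a log2 fold change (SE 0.0675, adjusted p 0.00146 by edgeR).

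Asph encodes aspartate beta-hydroxylase and, through other promoters and splicing, the reticulum membrane proteins junctin and junctate. Junctin joins calsequestrin to the ryanodine receptor, and junctate is a calcium-binding protein at contacts with the plasma membrane. A count per gene does not separate these products. Asph was at 30.3, 25.7 and 32.5 CPM in control replicates 1 to 3 and at 37.8, 38.2 and 44.3 CPM in knockdown replicates 1 to 3. The groups did not overlap, though the control values spread widely. The means were 29.5 ± 3.49 and 40.1 ± 3.64 CPM (SD, n = 3), or 0.44 as a log2 fold change (SE 0.0854, adjusted p 0.000102 by edgeR). Asph spans 213 kb in GRCr8, longer than 95.8% of tested genes with a known span, and 4 other annotated genes overlap it. With an offset that removes the trend of differences on gene span, its log2 fold change was 0.12 (adjusted p 0.204 by edgeR) and no longer passed. Over its 16 alternatives the adjusted p ran from 2.12e-07 to 0.204.

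Most skeletal muscle markers rose, as these 3 genes did under TMM scaling. Of the 15 tested, 12 rose and 1 fell (86.7% called, beside 61.7% of all tested genes, 30.8% higher). The summed level of the list was 1618 to 1633 CPM in controls and 2160 to 2347 CPM after knockdown. Myod1 was the marker that fell, and Myf5 was at or under 3 counts in every library. With the offset for gene span 13 of the 15 rose and none fell (86.7%, beside 62.1% of all genes with a span), while Asph was not called. Smooth muscle markers summed to 976 to 1070 CPM in controls and 1134 to 1286 CPM after knockdown. Of these, 3 of 6 were higher and none lower (50% called, under the 61.7% of all tested genes). Among the 5 tested cardiomyocyte markers, 3 were higher and 1 lower (80% called). With the offset 3 were higher and 2 lower. The muscle genes Casq2 and Casq1 did not rise with these markers, as Casq2 fell and Casq1 was not called. The part of these marker shifts in the rise of Srl, Hrc and Asph was not tested.

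Calr encodes calreticulin, the lectin chaperone that binds calcium in the reticulum and folds glycoproteins together with calnexin and Pdia3. Calr fell. It was at 2014, 2008 and 2119 CPM in control replicates 1 to 3 and at 1641, 1668 and 1671 CPM in knockdown replicates 1 to 3. The groups were far apart relative to their spread, with means of 2047 ± 62.4 and 1660 ± 16.7 CPM (SD, n = 3). On the log2 scale the change was -0.30 (SE 0.0400, adjusted p 7.6e-07 by edgeR), or 81.1% of the control level. Calr is a short gene, at 4.90 kb in GRCr8, and with the offset for gene span its log2 fold change was -0.16 (adjusted p 0.00208 by edgeR, from 5.07e-15 to 0.00208 over 16 alternatives).

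The Calr window is shown because it holds an endoplasmic reticulum stress element (ERSE), the site through which ATF6 and NF-Y act on chaperone genes. The element was searched as CCAAT, then 9 bases of any kind, then CCACG, on both strands. The window lies on the plus strand of GRCr8 at chr19:40213117-40213416. The match, in capitals, runs from 232 to 214 bases before the start and reads on the opposite strand.
Calr promoter: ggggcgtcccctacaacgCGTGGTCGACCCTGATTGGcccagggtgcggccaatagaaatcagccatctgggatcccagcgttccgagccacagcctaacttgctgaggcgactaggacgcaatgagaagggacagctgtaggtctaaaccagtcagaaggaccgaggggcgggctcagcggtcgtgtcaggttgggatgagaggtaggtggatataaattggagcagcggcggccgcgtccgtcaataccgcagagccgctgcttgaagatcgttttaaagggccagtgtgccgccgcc
The same search matched 22 of 33469 windows (0.0657%), and among the 7 members with a window only that of Calr. No member's window held an ERSE-II (ATTGG, 1 base, CCACG, found in 0.0508% of windows) or the element TGACGTG (1.81%). The E-box CANNTG was found in 72.1% of all windows and in those of 6 of the 7 members, all but Hrc.

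Calu, Rcn1 and Sdf4 encode CREC proteins, which carry several EF-hands and bind calcium with low affinity. All 3 fell, and Calu had the largest fall of the 9 genes. Calu encodes calumenin, which also inhibits the vitamin K-dependent carboxylation of proteins. It was at 1642, 1558 and 1733 CPM in control replicates 1 to 3 and at 1231, 1227 and 1257 CPM in knockdown replicates 1 to 3. Its groups did not come near each other, at 1644 ± 87.2 and 1238 ± 16.6 CPM (SD, n = 3). On the log2 scale the change was -0.41 (SE 0.0432, adjusted p 2.38e-08 by edgeR), or 75.3% of the control level.

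Rcn1 encodes reticulocalbin 1, a luminal protein held in the reticulum. Rcn1 was at 1030, 1029 and 1120 CPM in control replicates 1 to 3 and at 974, 948 and 974 CPM in knockdown replicates 1 to 3. The groups did not overlap, but the gap between them was small and control replicate 3 stood above the other controls. On the log2 scale the change was -0.13 (SE 0.0430, adjusted p 0.00956 by edgeR). The call was lost without control replicate 3 (-0.09), with library totals in place of TMM (-0.08) and with the offset for gene span (-0.08). Over the 16 alternatives the edgeR, DESeq2 or limma adjusted p ran from 0.00161 to 0.113. The RefSeq gene table lists 9 Rcn1 pseudogenes, of which 8 had an entry in the count table, each with 0 counts in all 6 libraries, and how shared reads were assigned is not given in the sources used here. Another annotated gene, Them7, overlaps Rcn1 in GRCr8.

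Sdf4 encodes Cab45, a CREC protein of the Golgi that sorts secreted cargo in a calcium-dependent way. Sdf4 was at 245, 259 and 255 CPM in control replicates 1 to 3 and at 216, 234 and 222 CPM in knockdown replicates 1 to 3. The highest knockdown value was below the lowest control value. On the log2 scale the change was -0.18 (SE 0.0466, adjusted p 0.00228 by edgeR), or 88.5% of the control level.

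**Figure D2:**
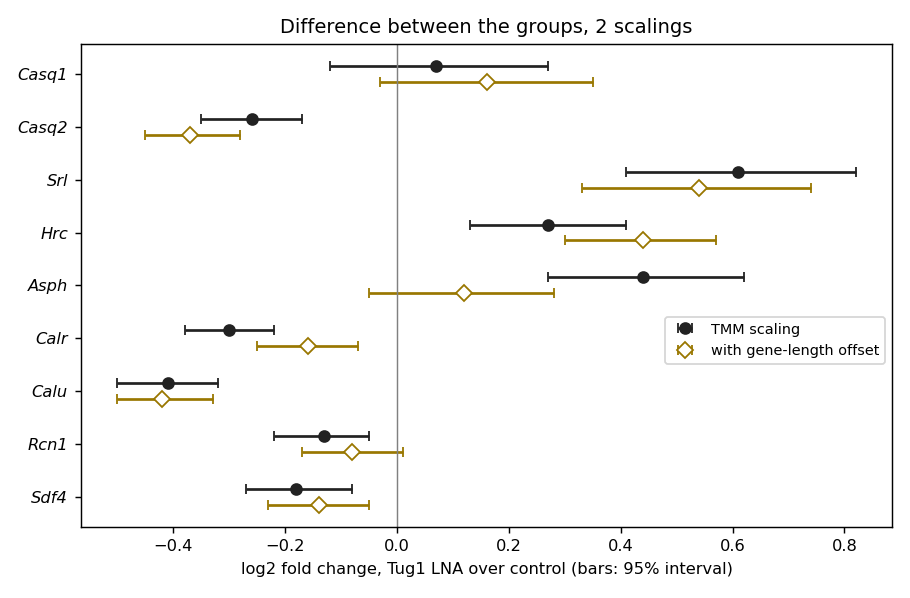
Log2 fold change of each gene, Tug1 LNA over control, with its 95% interval, under TMM scaling (filled circles) and with an added offset for gene span (open diamonds). The intervals of Casq1 include 0 in both, those of Asph and Rcn1 include 0 only with the offset, and no gene changes sign.

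With the offset for gene span, 6 of the 9 members passed, 2 higher (Srl and Hrc) and 4 lower (Calu, Casq2, Calr and Sdf4). Of the 13084 genes that had a span 62.1% passed, 3971 higher and 4160 lower. Calu kept its value (-0.42) and Srl stayed close to its own (0.54). Hrc, at 3.73 kb the shortest member, moved from 0.27 to 0.44 (adjusted p 3.72e-06 by edgeR), and Casq2, at 56.3 kb, from -0.26 to -0.37 (8.55e-08). Casq1, which did not pass in either fit, moved from 0.07 to 0.16 (0.135).

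As a share of all counts, the 9 members together took 0.520% to 0.558% in controls and 0.455% to 0.466% after knockdown. Calr, Calu, Rcn1 and Sdf4 held most of these counts, which are not corrected for coding length, with 0.491 ± 0.0189% in controls and 0.416 ± 0.00457% after knockdown (SD, n = 3). Casq1, Casq2, Hrc, Srl and Asph together took 0.0458 ± 0.000803% and 0.0443 ± 0.00143% (SD, n = 3). Casq2, which fell, supplied most of these counts, at 4604 to 4769 per control library beside 530 to 604 for Hrc, the next largest. The sum therefore mostly follows Casq2 and does not show the rises of Hrc, Srl and Asph. In this sum the ranges overlapped: knockdown replicates 1 and 2, at 0.0447% and 0.0428%, lay below all controls, and replicate 3, at 0.0455%, lay among them.

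Log2 ratios between a member and a relative or partner are free of library scaling, and 8 pairs were compared. They are ratios of CPM and not corrected for gene length, so only their change between the groups is read, and the trend of differences on gene span remains in that change. With 3 libraries against 3, the smallest p that the exact two-sided permutation test can give is 0.1, so no pair could pass 0.05. Hrc gained on Casq2: the log2 ratio was -3.03 ± 0.101 in controls and -2.50 ± 0.101 after knockdown (SD, n = 3; exact permutation p 0.1, 0.133 adjusted over the 8 pairs). Calr lost ground to its membrane-bound relative Canx, from 1.04 ± 0.0424 to 0.59 ± 0.0265 (SD, n = 3, exact permutation p 0.1, adjusted 0.133). With the offset for gene span the log2 fold changes of the single genes were -0.16 for Calr and 0.11 for Canx, nearer to each other than the -0.30 and 0.14 without it. For both pairs the 2 groups of libraries did not overlap. Among the CREC genes, Rcn1 and Sdf4 gained on Calu by 0.28 and 0.23, and Rcn1 gained on its relative Rcn2 by 0.20, each without overlap of the groups and each with an exact permutation p of 0.1. Srl gained on Casq1 by 0.55 without overlap (exact permutation p 0.1), while the Casq2 to Casq1 ratio (-0.33, exact permutation p 0.2) overlapped between the groups. The ratio of Asph to Trdn overlapped as well, at 2.44 ± 0.0498 in controls and 2.36 ± 0.246 after knockdown (SD, n = 3, exact permutation p 0.7).

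**Figure D3:**
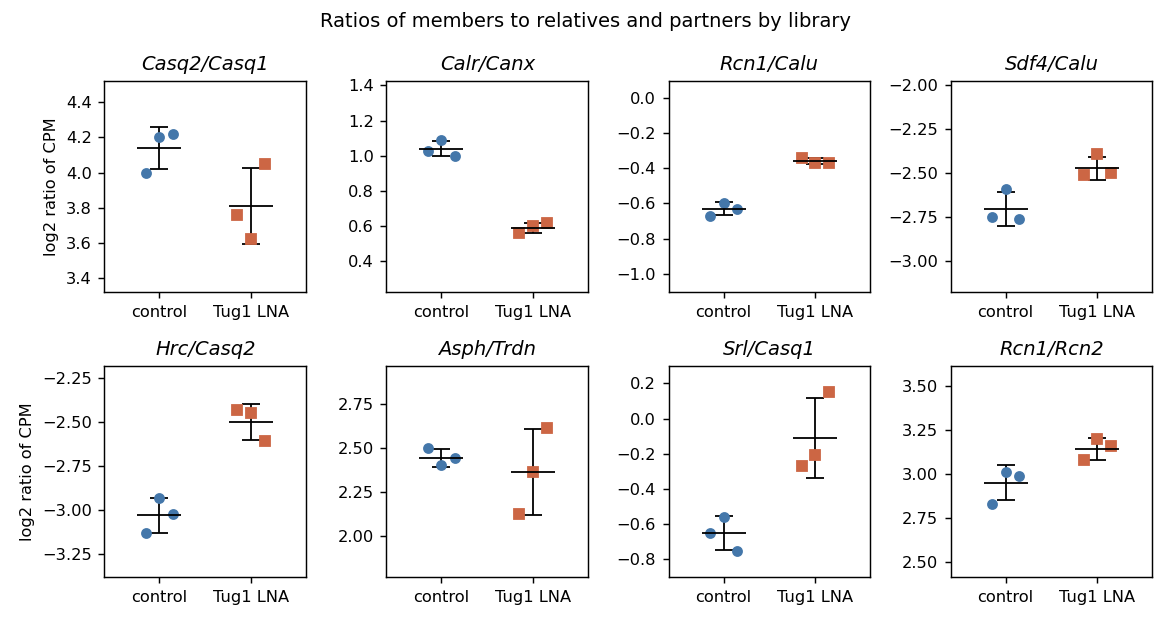
Log2 ratio of CPM for 8 pairs of genes in the 3 control libraries (circles) and the 3 Tug1 LNA libraries (squares), with the mean and SD as black bars, each panel spanning the same height of the log2 axis. Calr/Canx drops and Hrc/Casq2 and Srl/Casq1 rise without overlap, while Casq2/Casq1 and Asph/Trdn overlap.

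The nearest relatives of Calu, Rcn1 and Sdf4 are the other CREC proteins, and further EF-hand proteins share the secretory pathway with them. Lists of relatives and partners of the members had 72.7% to 85.7% of their tested genes called in the 4 longest, beside 61.7% of all tested genes. Of 12 CREC relatives and EF-hand genes, 11 were tested, 8 fell and none rose (72.7% called), with a median log2 fold change of -0.29. Rcn2 went from 138 ± 8.94 to 109 ± 6.03 CPM (SD, n = 3), or -0.33 as a log2 fold change (SE 0.0571, adjusted p 2.55e-05 by edgeR), and Rcn3 was at -0.29. Cgref1, a secreted EF-hand protein, fell furthest, by 1.32 on the log2 scale (SE 0.0631, adjusted p 5.48e-14 by edgeR). Nucb2 (-0.50), the EF-hand peptidyl-prolyl isomerase Fkbp7 (-0.39) and the cargo receptor subunit Mcfd2 (-0.36) also fell. With the offset for gene span 9 of the 11 fell and none rose (81.8% called, beside 62.1% of all genes with a span).

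Calreticulin works with a set of luminal chaperones, folding enzymes and glycan-processing enzymes. Of 23 such genes 21 were tested, 14 fell and 3 rose, with a median of -0.30 (81% called, beside 61.7% of all tested genes). With the offset for gene span 14 fell and 2 rose, with a median of -0.26 (76.2% called, beside 62.1%). Pdia3, the disulfide isomerase that binds calreticulin, went from 1315 ± 54.7 to 908 ± 35.1 CPM (SD, n = 3), or -0.53 as a log2 fold change (SE 0.0439, adjusted p 4.14e-10 by edgeR). The abundant calcium-binding chaperones fell as well, Hspa5 (BiP) by 0.65 and Hsp90b1 (GRP94) by 0.41 on the log2 scale. With the offset Hspa5 was at -0.50 and Hsp90b1 at -0.36. Tapbp (tapasin, -0.92), Txndc5 (-0.83) and Ppib (-0.64) had the largest other changes, and with the offset they were at -0.83, -0.84 and -0.51. Canx was among the 3 that rose, by 0.14 (SE 0.0438, adjusted p 0.00647 by edgeR). It did not pass without control replicate 2 (0.11, adjusted p 0.0641 by edgeR), and the range over 16 alternatives was 0.000381 to 0.0641.

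The genes that sense and carry out the unfolded protein response were tested in full, 21 of 21. Of these, 12 fell and 6 rose, with a median of -0.20 (85.7% called, beside 61.7% of all tested genes). Herpud1, which takes part in degradation from the reticulum, fell by 0.78 and the stress factor Ddit3 by 0.37 on the log2 scale. The sensor kinase Eif2ak3 (PERK) and the oxidase Ero1b were higher, at 1.10 (SE 0.0777, adjusted p 3.18e-11 by edgeR) and 0.97. With the offset for gene span, 13 of the 21 passed, 9 lower and 4 higher, a share of 61.9% beside 62.1% of all genes, and the median was -0.10. Ddit3 was then at -0.23.

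The partners of calsequestrin at the junction, together with the pumps, their regulators and other reticulum channels, rose more often than they fell. Of 30 listed genes 23 were tested, 14 rose and 4 fell, with a median of 0.37 (78.3% called, beside 61.7% of all tested genes). With the offset for gene span 11 rose and 5 fell, with a median of 0.26. That was 69.6% called, beside 62.1% of all genes with a span. Ryr1, the skeletal release channel, rose by 0.85 (SE 0.0767, adjusted p 1.79e-09 by edgeR). Its span of 131 kb is longer than 91.4% of tested genes with a span, and with the offset it was at 0.61. Ryr2 had 3 counts in 1 control library, none in the other libraries, and was not tested. Trdn, which anchors calsequestrin, was at 5.42 ± 0.571 and 7.81 ± 0.780 CPM (SD, n = 3), or 0.53 as a log2 fold change (adjusted p 0.00376 by edgeR). Trdn is longer than 99.0% of tested genes with a span, and with the offset it was at 0.11 (adjusted p 0.523 by edgeR, from 0.00168 to 0.538 over 16 alternatives). The pump Atp2a1 rose by 0.70, and Atp2a2 was at 0.05 without a call. Atp2a2 was called higher with library totals (0.10) and lay below 0 with the offset. Jph2 was at 0.14 (adjusted p 0.0306 by edgeR) and passed in 7 of 16 alternatives, whose adjusted p ran from 0.00416 to 0.863. Stac3 (1.11), Bin1 (1.10) and the pump inhibitor Sln (0.93) rose, and the release channel regulator Fkbp1b fell by 1.05 on the log2 scale. Other pump regulators of the list, named after their values were seen, divided: Pln fell (-0.68) and Mrln rose (0.39).

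The remaining relatives divided by gene. Sarcalumenin shares its core with the membrane-remodelling EHD proteins, of which Ehd3 (0.69) and Ehd4 (0.17) rose and Ehd2 (-0.27) and Ehd1 (-0.16) fell. With the offset for gene span Ehd4 was at 0.04 and not called, and with library totals Ehd1 was at -0.11 and not called. Among 6 relatives of aspartate beta-hydroxylase and genes of vitamin K-dependent carboxylation, 4 were tested and all passed. Over all tested genes 61.7% passed. The asparagine hydroxylase Hif1an (0.25), the carboxylase Ggcx (0.16) and the epoxide reductase Vkorc1l1 (0.50) rose, and Vkorc1, its better-known relative, was at -0.25. Vkorc1 lost its call with the offset (-0.05), under which the other 3 tested genes were higher and none was lower. That was 75% called, beside 62.1% of all genes with a span.

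**Figure D4:**
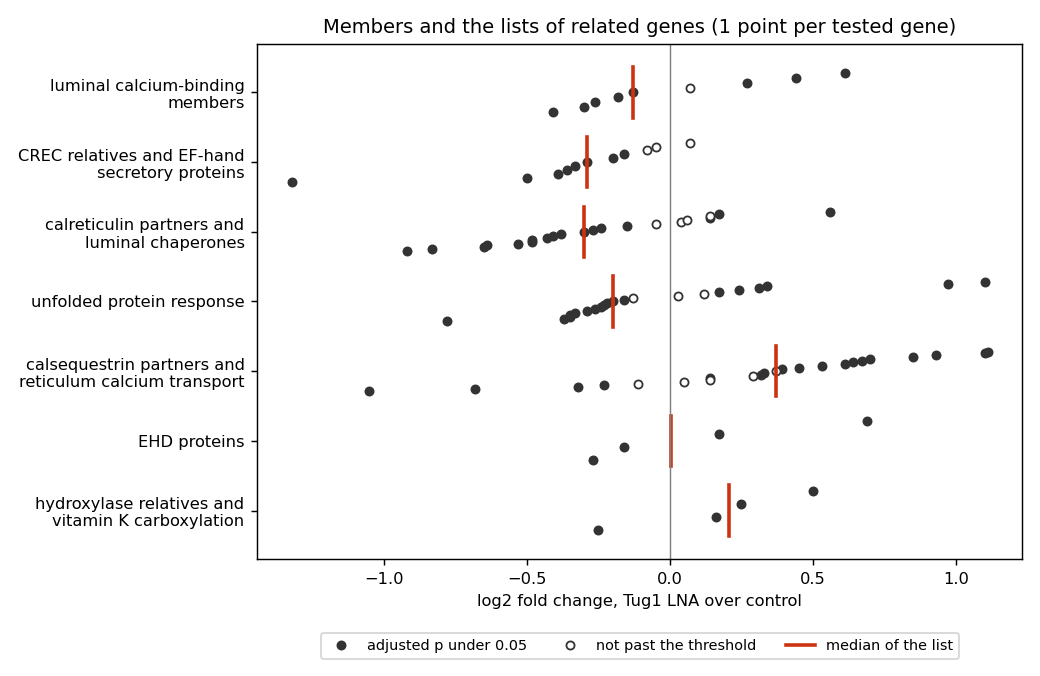
Log2 fold change, Tug1 LNA over control, of every tested gene in the 9 members and 6 lists of related genes. Filled points passed an edgeR adjusted p of 0.05, open points did not, and the red line is the median of the list, lowest for the luminal chaperones (-0.30) and highest for the calsequestrin partners (0.37).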

How the data were processed

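RNA from 6 libraries (3 control, 3 Tug1 LNA) was sequenced after poly-A selection with a stranded kit, per the labels' protocols. The authors deposited 1 table of whole-number counts per gene, unnormalized. The submitters' processing notes name FastQC 0.11.7, fastp 0.14.1 and STAR 2.5, while the counting tool, genome build, annotation, use of strand and treatment of multiply mapped reads are not given in the sources used here. Of 40456 genes, 14397 had no count in any library.

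Groups were taken from the labels. Genes were filtered with filterByExpr (minimum count 10, minimum total 15), which kept 14216, scaled by TMM and tested with edgeR 4.0.16 (quasi-likelihood, R 4.3.3, all 6 libraries, Benjamini-Hochberg adjusted p under 0.05). The script was tested on simulated counts in which few genes changed and no trend on gene span was added. That check does not cover data such as these, where most genes were called. Alternatives used DESeq2 1.42.0 (size factors or Wald test), limma 3.58.1 (voom), library totals, other filters, a threshold of 0.01, a replicate block, a gene-span offset (lowess span 0.3, 13084 tested genes with a span in the RefSeq table of GRCr8) and leaving out each library. CPM per library sets the depth: 3 counts are 0.217 to 0.232 CPM, and SDs over 3 libraries include counting error. Pair ratios were compared with exact permutation tests. Promoter windows came from RefSeq, assembly GRCr8, and were matched by symbol for 7 of 9 members.

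The members and lists were chosen with earlier results of these data known, so their counts and medians are descriptions. Genes named were the members, Tug1, a fixed set of partners (Canx, Pdia3, Rcn2, Rcn3, Hspa5, Hsp90b1, Trdn, Ryr1, Ryr2, Jph2, Atp2a1, Atp2a2, Vkorc1 and Ggcx), cell type markers, and from each list the 4 called genes with the largest absolute change and a mean of at least 1 CPM. Pln and Mrln were named after their values were seen. A planned description of protein sequences and of levels per coding length was not run, so levels are not compared between genes except as shares of counts.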

Additional observations from a re-analysis of the deposited data

How the results depend on the processing

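The tests of Tug1, the members, the 6 lists of related genes and the genes named from those lists were repeated under 16 alternatives. Cell type marker lists were repeated with the gene-span offset only, and pair ratios without each library and on raw counts. The list from the stress element search, and Creld2, Xbp1 and Dnajc3 in it, were not repeated, nor were Pln and Mrln as single genes. Of the 9 members, 6 to 8 passed (7 to 8 when 1 library was left out), beside 7353 to 8987 of all tested genes (8128 to 8410). The number of tested genes differed between alternatives, so these gene counts cannot be compared as shares. The highest, 8987, came without an expression filter, where every gene with a count in any library was tested and 8 members passed. The lowest, 7353 of 14216, came with the threshold of 0.01, where 8 members passed. With the gene-span offset 8131 of 13084 genes passed (62.1%), beside 6 of the 9 members. Casq2, Calr, Hrc, Srl, Sdf4 and Calu passed in all 16 and kept their direction. Asph lost its call with the gene-span offset, with and without the block, and Rcn1 in the alternatives named above. Of 43 members and other named genes besides Tug1, 34 kept direction and side of the threshold in all 16. Atp2a2, which was not called, turned to -0.046 with the offset, with and without the block, and was called with library totals (0.098), which shift the median of all genes to 0.06. When 1 library was left out, the Asph to Trdn difference ran from -0.20 to 0.04, the latter without Tug1 LNA replicate 1. The cause of these shifts was not tested.

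With the replicate number as a block, 8848 of 14216 genes passed, and 8 of 9 members passed in the same direction. Correlations between the deviations of same-numbered libraries were near 0 (-0.00479, 0.0245 and 0.0204). Control replicates 2 and 3 correlated best with their own number, and control replicate 1 with Tug1 LNA replicate 3 (0.00416). With 3 libraries per group and values this small, the correlations cannot tell whether the numbers pair the samples. Casq1, at 249 to 316 counts per library, and Srl, at 152 to 277, have the least depth. The planned levels per coding length and protein comparison were not run.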

Other observations

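The search for the stress element of the Calr window picked out 21 gene symbols in 22 windows, a list formed after the values of Calr were seen. Of these, 16 were tested, 7 fell and 6 rose (81.2% called, beside 61.7% of all tested genes), with a median log2 fold change of -0.06. The genes named here were chosen after their values were seen. Hspa5 (-0.65), Hsp90b1 (-0.41), Creld2 (-0.35), Xbp1 (-0.33) and Calr (-0.30), all of the luminal chaperone system or its control, fell. Canx (0.14), the co-chaperone Dnajc3 (0.17) and the oxidase Ero1b (0.97) hold the same element and rose. Genes with the element thus changed in both directions.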
